A study of Mus musculus with 10 samples.

Results

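The genes of the MHC class II pathway examined in mouse ileum were H2-Aa, H2-Ab1, H2-Eb1, H2-DMa, H2-DMb1, H2-DMb2, H2-Oa, H2-Ob, the invariant chain gene Cd74 and the regulator Ciita. They were chosen by gene symbol, with all of their probes taken, and the array's older symbol C2ta was read as Ciita. These are 10 of 16593 genes named on the array, with 14 of its 25697 probes. A probe was counted as measured when it stood out from the array's negative controls, with a detection p under 0.05, on 5 or more of the 10 arrays. By that rule 7 of the 10 genes were measured, of 8686 named genes on the whole array, and 11 of 12039 probes.

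Ileum is the last stretch of the small intestine. Total RNA from 5 samples of wild type (WT) and 5 with knockout of interferon-gamma (IFNg), a cytokine of T cells and natural killer cells, was hybridised to Illumina mouse bead arrays, 1 array per sample. Both genotypes were of strain C57Bl/6, male, 8 weeks of age, on standard chow in specific-pathogen free housing, and untreated. The labels tell the groups apart as wild type and knockout, and they do not give the knockout allele. Whether the 10 samples are 10 animals is not stated outright, and the p-values reflect the variation among these samples only. Array set 1 held Ileum_WT_640 and Ileum_WT_641 and Ileum_IFNgKO_645 and Ileum_IFNgKO_646, and array set 2 held Ileum_WT_642, Ileum_WT_643 and Ileum_WT_644 and Ileum_IFNgKO_647, Ileum_IFNgKO_648 and Ileum_IFNgKO_649, samples being called by their titles.

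MHC class II molecules are pairs of an alpha and a beta chain that carry peptides from endosomes to the cell surface and show them to CD4+ T cells. The invariant chain Cd74 fills the peptide groove until proteases cut it away, H2-DM then exchanges the remaining fragment for peptide, and H2-O restrains H2-DM, mainly in B cells. Ciita is the coactivator that switches these genes on together, and IFNg is a well-known inducer of Ciita outside the professional antigen-presenting cells, which in the intestine include dendritic cells, macrophages and B cells. The intestinal epithelium can also carry class II.

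The shared promoter elements of the family are shown first because they are the sites through which Ciita acts on its targets. RFX proteins bind the X box and NF-Y binds the Y box, which is an inverted CCAAT element, and Ciita docks on the assembled proteins. The 150 bases before the RefSeq transcription start were searched on both strands, in assembly GRCm38.p6, for the letters TGATTGG (Y motif) and for GNAAC, 3 bases of any kind and TGANG in a row (X motif, where N is any base). These patterns were written with the class II promoters in view. In the sequences here both motifs are in capitals, read 5′ to 3′ along the gene's strand, and the motifs do not overlap. H2-Eb1 lies at chr17:34305717-34305866 (plus strand), H2-DMb1 at chr17:34153041-34153190 (plus strand), H2-DMb2 at chr17:34145099-34145248 (plus strand) and H2-Aa at chr17:34287824-34287973 (minus strand).
H2-Eb1: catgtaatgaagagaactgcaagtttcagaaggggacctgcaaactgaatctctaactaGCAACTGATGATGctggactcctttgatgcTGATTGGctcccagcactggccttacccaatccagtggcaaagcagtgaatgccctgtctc
H2-DMb1: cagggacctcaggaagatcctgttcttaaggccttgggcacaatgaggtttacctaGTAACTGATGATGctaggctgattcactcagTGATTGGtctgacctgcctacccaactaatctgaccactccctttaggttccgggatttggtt
H2-DMb2: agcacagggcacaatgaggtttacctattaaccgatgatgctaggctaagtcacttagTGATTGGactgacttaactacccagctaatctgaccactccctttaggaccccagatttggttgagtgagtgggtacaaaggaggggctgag
H2-Aa: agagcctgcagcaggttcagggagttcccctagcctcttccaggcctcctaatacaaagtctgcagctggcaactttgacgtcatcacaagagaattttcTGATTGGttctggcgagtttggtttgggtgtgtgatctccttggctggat

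Cd74 was left out of this count, so its promoter is not described, and H2-Ab1 and Ciita had no entry in the promoter table. Of the 7 genes counted, 6 held the Y motif, and the same letters stood in 5.71% of all 32851 promoters of this length. The X motif stood in 3 of the 7, namely H2-Eb1, H2-DMb1 and H2-Ob, against 0.451% of all promoters. In H2-Eb1 17 bases separate the X motif from the Y motif, in H2-DMb1 18 and in H2-Ob 15. Both motifs together were found in 13 promoters of the table, or 0.0396%. H2-DMa held neither motif before either of its 2 listed starts. A match describes the letters only, and no match says only that these letters are not in the window. The neighbouring copies H2-DMb1 and H2-DMb2 both hold the Y motif, and H2-DMb1 was detected on all 10 arrays and H2-DMb2 on 0. Whether the H2-DMb1 probe also binds the H2-DMb2 transcript was not tested.

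No measured class II probe passed the test for a difference between knockout and WT, from the regulator Ciita to the chains it drives. With limma, array set fitted and p-values adjusted by the Benjamini-Hochberg method over all 12039 probes, 0 of the 11 probes passed 5%, and 0 had an unadjusted p under 0.05. Over the whole array 2 probes passed, which is 0.0166%, and 12.2% had an unadjusted p under 0.05 (5.86% with knockout higher and 6.38% with knockout lower). The 2 were Fbln2, the gene of an extracellular matrix protein, and a probe unnamed here, ILMN_1216322, both lower in knockout, and they are named because they are few. Of the class II probes 6 were higher in knockout and 5 lower, where 51% of all tested probes were higher, with a median log2 difference of 0.01, beside 0.00 over all tested probes. Knockout and WT values overlapped on all 11 probes. Across the array, no overlap was found with knockout higher on 0.706% of probes and with knockout lower on 0.631%. All 11 intervals of 95% included 0, and together they reached from a fold of 0.637 to one of 1.77, knockout over WT.

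Levels below are log2 intensities after background correction and quantile normalisation, and since each probe has its own brightness, levels are compared between samples and not between genes. In bulk tissue, fewer cells of a type and less RNA per cell cannot be told apart.

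Ciita, the regulator, had nearly equal means in both genotypes. Its level in Ileum_WT_640 to Ileum_WT_644 was 6.68, 6.76, 6.86, 6.05 and 6.38, and in Ileum_IFNgKO_645 to Ileum_IFNgKO_649 it was 6.64, 6.79, 6.72, 6.09 and 6.53. The lowest sample of each group, Ileum_WT_643 and Ileum_IFNgKO_648, belonged to array set 2, and the groups covered almost the same range. The mean was 6.54 ± 0.33 (SD, n = 5) in WT and 6.55 ± 0.28 (SD, n = 5) in knockout. The difference, knockout minus WT, was 0.01 ± 0.17 (SE) on the log2 scale, with an interval of -0.36 to 0.37 and a limma adjusted p of 0.993. It was -0.01 within array set 1 and 0.02 within array set 2. As a fold, knockout over WT, the interval runs from 0.782 to 1.29. Ciita was detected on all 10 arrays with raw intensities of 127.8 to 211, where the median probe of an array had 93 to 111.8.

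H2-Ab1 encodes the beta chain of the I-A molecule and had 4 probes, all detected on all 10 arrays. On its brightest probe, ILMN_1226525, Ileum_WT_640 to Ileum_WT_644 had levels of 11.51, 12.12, 11.65, 11.39 and 11.71, and Ileum_IFNgKO_645 to Ileum_IFNgKO_649 had 11.60, 11.88, 11.79, 11.44 and 11.69. The highest sample was Ileum_WT_641, and the knockout values lay inside the WT range. Means were 11.68 ± 0.28 (SD, n = 5) and 11.68 ± 0.17 (SD, n = 5), with a difference of 0.01 ± 0.15 (SE, limma adjusted p 0.995). The other H2-Ab1 probes gave -0.08 ± 0.15 (ILMN_2607675, adjusted p 0.849), 0.13 ± 0.14 (ILMN_2631423, adjusted p 0.737) and -0.13 ± 0.20 (ILMN_2913716, adjusted p 0.812), all from limma. The 4 probes thus disagreed in sign, by amounts within their errors.

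H2-Aa encodes the alpha chain that pairs with H2-Ab1. Its single probe was dim, with raw intensities of 106.9 to 235.2, and it was detected on 4 WT and 5 knockout arrays. The level was 5.19, 6.05, 6.52, 6.30 and 6.92 in Ileum_WT_640 to Ileum_WT_644, and 6.01, 6.36, 6.82, 6.57 and 7.22 in Ileum_IFNgKO_645 to Ileum_IFNgKO_649. Ileum_WT_640, where the detection p was 0.108, was lowest, and the groups overlapped in the rest of their range. The mean was 6.20 ± 0.65 (SD, n = 5) in WT and 6.60 ± 0.46 (SD, n = 5) in knockout. The difference was 0.40 ± 0.20 (SE), with an interval of -0.02 to 0.82 and a limma adjusted p of 0.428. It was 0.56 within array set 1 and 0.29 within array set 2. Without Ileum_WT_640 it was 0.24, and without background correction it was 0.21. H2-Aa also had the lowest p of the 11 probes, 0.0626 unadjusted in the limma fit.

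H2-Eb1 encodes the beta chain of the I-E molecule. Its level in Ileum_WT_640 to Ileum_WT_644 was 10.41, 10.91, 9.89, 9.86 and 10.48, and in Ileum_IFNgKO_645 to Ileum_IFNgKO_649 it was 10.21, 10.53, 10.06, 10.22 and 10.35. All knockout samples fell inside the WT range, whose top was again Ileum_WT_641. The difference was -0.04 ± 0.17 (SE, limma adjusted p 0.95), and it was of opposite sign in the 2 array sets, -0.28 in set 1 and 0.13 in set 2. The alpha chain gene of I-E, H2-Ea, not among the 10 genes, was detected on 0 arrays. Background knowledge is that C57BL/6 mice carry a deletion in the H2-Ea promoter and make no I-E.

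The peptide exchange factor H2-DM was represented by H2-DMa and H2-DMb1. H2-DMa had levels of 9.81, 9.95, 9.13, 9.29 and 9.94 in Ileum_WT_640 to Ileum_WT_644, and 9.32, 9.60, 9.43, 8.94 and 9.42 in Ileum_IFNgKO_645 to Ileum_IFNgKO_649. The 3 highest values were Ileum_WT_640, Ileum_WT_641 and Ileum_WT_644, while Ileum_WT_642 and Ileum_WT_643 lay among the knockout samples. The H2-DMa difference was -0.28 ± 0.17 (SE), with an interval of -0.65 to 0.09 and a limma adjusted p of 0.533. It was lower in knockout within both array sets, at -0.42 in set 1 and -0.19 in set 2. H2-DMb1, the beta chain, had levels of 7.51, 8.49, 7.56, 7.64 and 8.31 in Ileum_WT_640 to Ileum_WT_644 and 7.70, 8.12, 7.80, 7.65 and 7.88 in Ileum_IFNgKO_645 to Ileum_IFNgKO_649. The knockout values lay within the WT range. Its difference was -0.07 ± 0.20 (SE, limma adjusted p 0.901).

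Cd74, the invariant chain, had 2 bright probes, both detected on all 10 arrays. On ILMN_3089584 Ileum_WT_640 to Ileum_WT_644 had levels of 11.88, 11.99, 11.19, 11.38 and 11.62, and Ileum_IFNgKO_645 to Ileum_IFNgKO_649 had 11.82, 12.18, 11.74, 11.66 and 11.81. The lowest 3 values were the WT samples of array set 2, and the highest was Ileum_IFNgKO_646. On ILMN_1221817 the WT levels were 11.13, 11.50, 10.88, 11.16 and 11.19, and the knockout levels were 11.11, 11.54, 11.38, 11.35 and 11.66. Here too all 3 knockout samples of array set 2 stood above all 3 WT samples of that set, while in set 1 the genotypes overlapped. The 2 Cd74 probes were the class II probes with this order in set 2, which 7.08% of all tested probes had. The difference was 0.23 ± 0.14 (SE, interval -0.06 to 0.52, limma adjusted p 0.512) on the first probe and 0.24 ± 0.15 (SE, interval -0.09 to 0.56, limma adjusted p 0.544) on the second. Within array set 1 it was 0.06 and 0.01, and within array set 2 it was 0.34 and 0.38. The genotype difference did not pass as differing between array sets for any class II probe: 0 of 11 had a limma adjusted interaction p under 0.05 and 0 an unadjusted one, beside 0% and 382 of all 12039 probes.

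The remaining genes were at background. H2-DMb2, the close copy of H2-DMb1, was detected on 0 arrays, with raw intensities of 71.6 to 102.5. H2-Oa, the alpha chain of the H2-DM inhibitor, was detected on 2 arrays, Ileum_IFNgKO_645 and Ileum_IFNgKO_649, with raw intensities of 84.7 to 125.6. H2-Ob, its beta chain, was detected on 1 array, Ileum_IFNgKO_649, with raw intensities of 93.2 to 110.4. No difference is given for these 3 genes, since their probes have only an upper bound on most arrays.

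**Figure D1:**
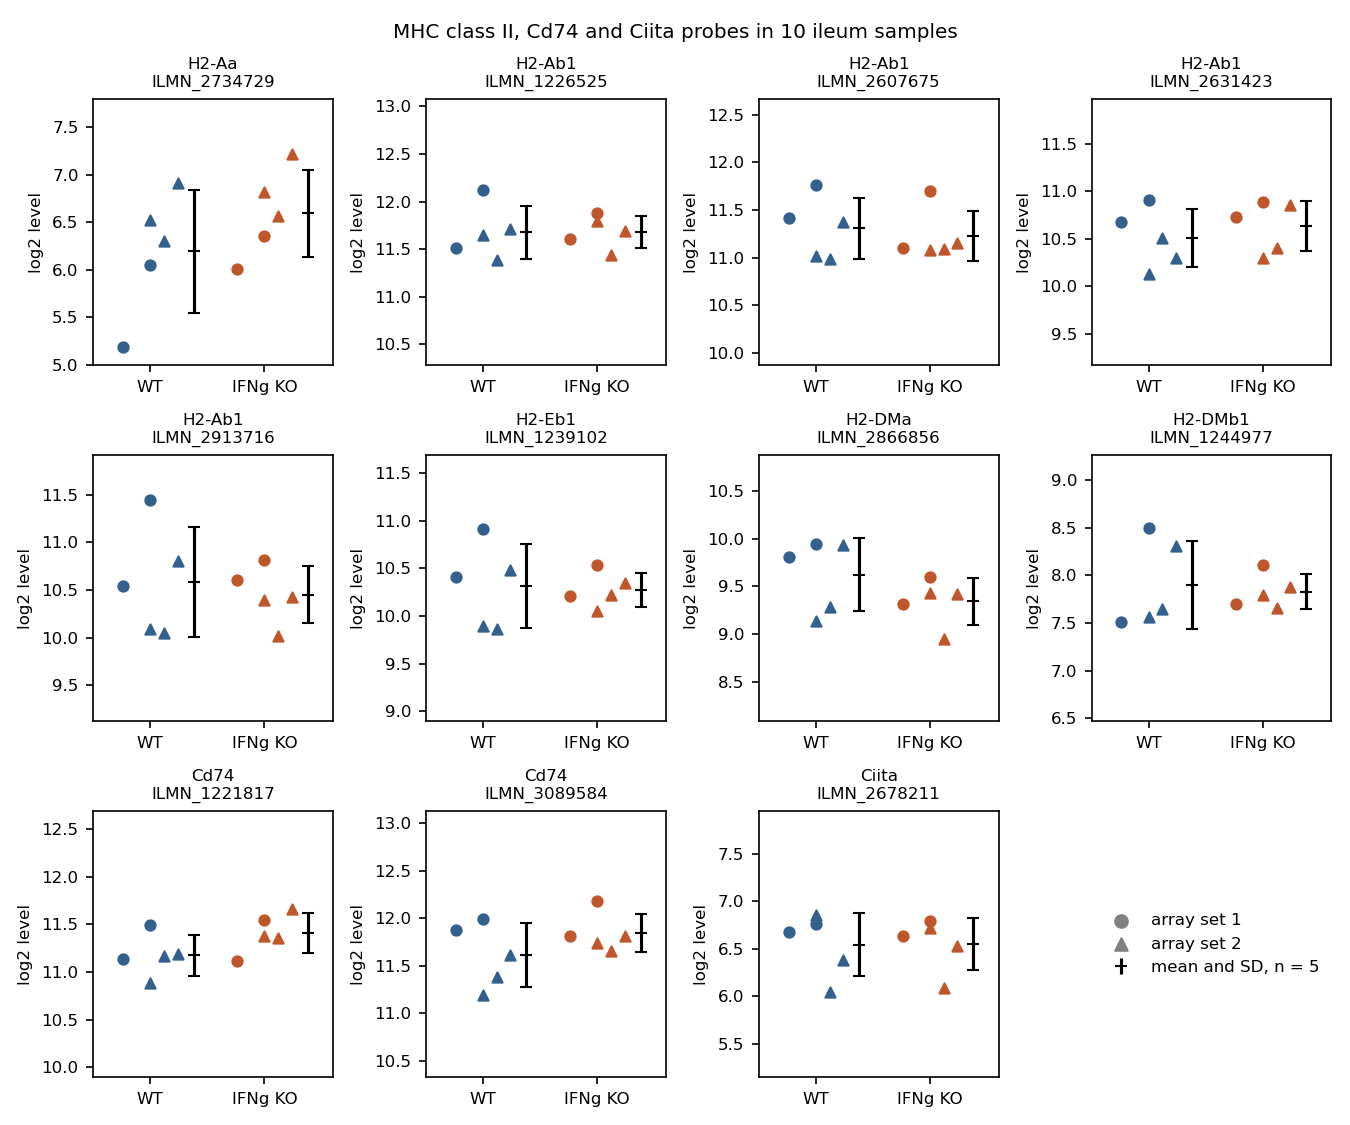
Level of each of the 11 measured probes (log2 intensity, vertical axis) in the 5 WT and 5 knockout samples, with circles for array set 1, triangles for array set 2 and bars for the mean and SD of each genotype. All panels have the same span, and the genotypes overlap in all 11 panels.

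**Figure D2:**
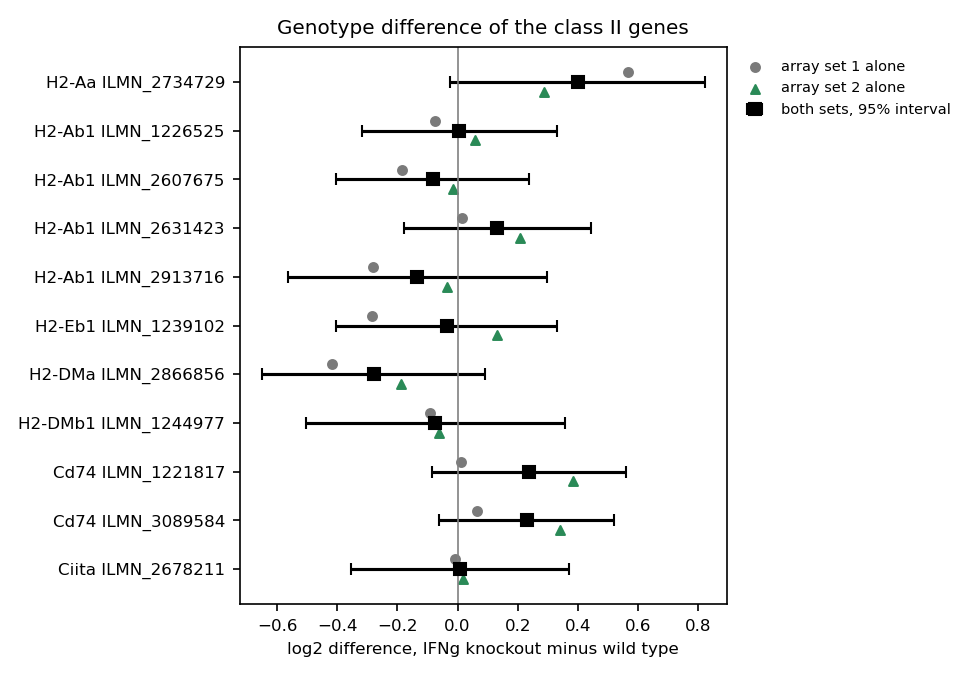
Log2 difference, knockout minus WT (horizontal axis), for the 11 probes, as squares with the 95% interval from the fit with array set, and as grey circles and green triangles within array set 1 and array set 2. All 11 intervals include 0, from H2-DMa at -0.28 to H2-Aa at 0.40.

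The SD of class II levels within WT was 0.22 to 0.65 log2 units and within knockout 0.17 to 0.46. It was the larger in WT on all 11 probes, as on 67.2% of all tested probes, a description with no test. Without Ileum_WT_641 it was larger in WT on 7 of the 11, beside 53.3% of all probes. Ileum_WT_641 was the highest WT sample on 9 of the 11 probes, and Ileum_IFNgKO_646 was the highest knockout sample on 9. Both belong to array set 1, and this order used levels not centred on array set. After centring, the median over the 11 probes was 0.265 in Ileum_WT_641, 0.101 in Ileum_IFNgKO_646 and 0.126 in Ileum_IFNgKO_649. Ileum_WT_641 also stands apart on the array as a whole, with the fewest probes detected (10618, where the other samples had 10818 to 12975) and the lowest mean correlation with the other arrays (0.949). Without it 9 of the 11 probes were higher in knockout, beside 50% of all probes, and the median difference was 0.08, beside 0.00 over all probes. An unadjusted p under 0.05 was found for 2 of the 11, beside 10.9% of all probes, H2-Aa at 0.52 (limma adjusted p 0.363) and the Cd74 probe ILMN_1221817 at 0.33 (limma adjusted p 0.438). No class II probe passed 5% without it. Because Ileum_WT_641 was the highest WT sample on 9 probes, leaving it out lowers the WT mean on them. These counts are therefore no separate support for a difference. Without Ileum_WT_640 or without Ileum_WT_643, 4 of the 11 probes were higher in knockout, with median differences of -0.075 and -0.098.

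Array set was the other known source of variation. Of the 11 probes, 10 were lower in set 2, as were 64% of all probes, with a median of -0.31 log2 units beside -0.12. Of the 11, 1 passed 5%, where 19.2% of all probes did, so the class II share was not above that of the array. The one that passed was H2-Aa, which was higher in set 2 by 0.82 ± 0.20 (SE, limma adjusted p 0.0112). The first principal component of the array, with 44% of the variance, separated the 2 sets. For this reason levels were centred on the mean of their array set before correlations across samples were computed.

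After centring, nearly all correlations between class II genes across samples were positive, and no pair passed 5% after adjustment. With 1 probe per gene, the brightest, 20 of the 21 pairs of the 7 genes had a positive Pearson r over 10 samples, with a median of 0.501 and a range of -0.039 to 0.846. By exact permutation within array sets, two-sided, 6 pairs had an unadjusted p under 0.05 and 0 an adjusted one over the 21 pairs. With Spearman's rho the counts were 4 and 0, and without Ileum_WT_640 2 pairs passed with r. These r values keep the genotype difference, since levels were centred on array set only. With levels centred on genotype too, 20 pairs were positive, with a median r of 0.691 and a range of -0.082 to 0.922. By exact permutation within genotype and array set, 10 pairs then had an unadjusted p under 0.05 and 0 an adjusted one. That permutation has only 144 arrangements, so its smallest possible p is 0.00694. A lone pair could not pass 5% after adjustment over the 21 pairs, so this 0 is no sign of absent co-variation. All pairs share the same 10 arrays, so they are not independent of each other.

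The highest pair was H2-Eb1 with H2-DMb1, with r = 0.846 (exact permutation p = 0.00376, adjusted 0.079) and rho = 0.855 (exact permutation p = 0.00394, adjusted 0.0826). Within array set 2 r was 0.831 (n = 6, exact permutation p = 0.0194), and without the 2 samples farthest from the median H2-Eb1 level it was 0.56. H2-Ab1 with H2-DMb1 had r = 0.806 (exact permutation p = 0.0207, adjusted 0.145) and rho = 0.855 (exact permutation p = 0.0256, adjusted 0.16), 0.485 within array set 2 and 0.735 without the 2 farthest samples. The 2 chains of H2-DM, H2-DMa and H2-DMb1, had r = 0.679 (exact permutation p = 0.0399, adjusted 0.17) and rho = 0.527 (exact permutation p = 0.146, adjusted 0.236), 0.926 within array set 2 and 0.519 without the 2 farthest samples. The 2 chains of I-A, H2-Aa and H2-Ab1, had r = 0.674 (exact permutation p = 0.0645, adjusted 0.171) and rho = 0.661 (exact permutation p = 0.0554, adjusted 0.172), 0.719 within array set 2 and 0.317 without the 2 farthest samples.

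For the regulator Ciita the highest of 6 pairs was with H2-Ab1. Its r was 0.593 (exact permutation p = 0.0153, adjusted 0.145, with rho = 0.539, exact permutation p = 0.0664, adjusted 0.172), 0.818 within array set 2 and 0.529 without the 2 farthest samples. With the other 5 genes its r ran from -0.039 (Cd74) to 0.305 (H2-Aa). Whether Ciita's values differ from those of other pairs was not tested, and its probe was among the dim ones.

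**Figure D3:**
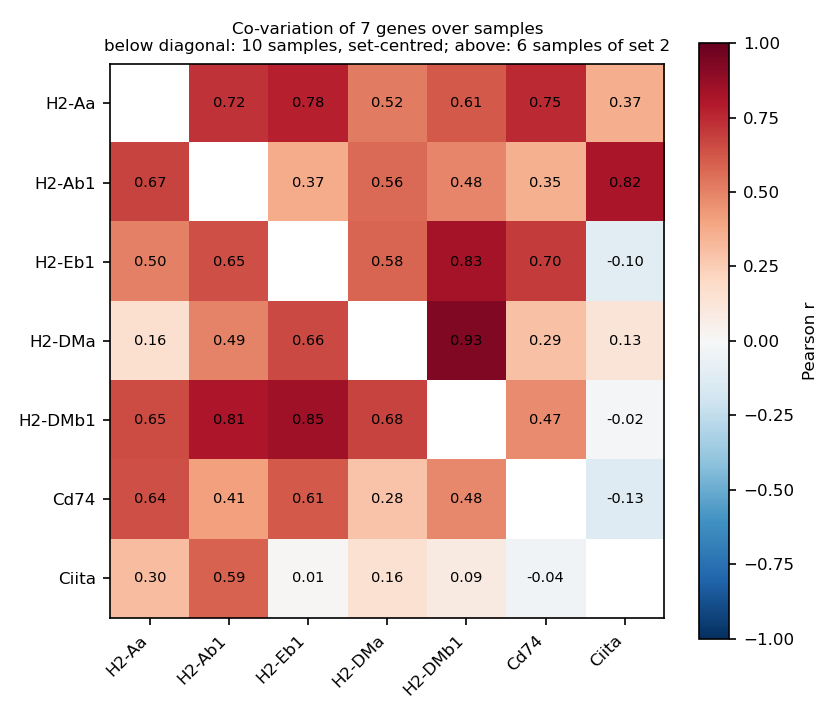
Pearson r between the levels of the 7 measured genes across samples, on a colour scale from -1 to 1, with all 10 samples centred on array set below the diagonal and the 6 samples of array set 2 above it. Most cells are positive, H2-Eb1 with H2-DMb1 is high on both sides, and the Ciita row and column are pale outside H2-Ab1.

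Probes of one gene were compared in the same way. The 2 Cd74 probes had r = 0.915 over 10 samples (exact permutation p = 5.79e-05, the smallest that 17280 arrangements can give, adjusted 0.000405 over 7 probe pairs) with rho = 0.891 (exact permutation p = 0.000116, adjusted 0.000812), 0.928 within array set 2 and 0.897 without the 2 farthest samples. Of the H2-Ab1 probes, ILMN_1226525 and ILMN_2913716 had r = 0.843 (exact permutation p = 0.00376, adjusted 0.0132) with rho = 0.867 (exact permutation p = 0.0037, adjusted 0.0129), 0.704 within array set 2 and 0.809 without the 2 farthest samples. ILMN_2631423 had r of 0.175 to 0.257 with the other 3 H2-Ab1 probes (exact permutation, adjusted p 0.507 to 0.594). It is also the H2-Ab1 probe with the most positive genotype difference, 0.13, where ILMN_2913716 gave -0.13.

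Cd74, whose 2 probes had the highest r of the probe pairs, was compared with the other named genes. The 5 whose set-centred levels were most like its own over the 10 samples were Bloc1s1, a subunit of a lysosome-related organelle complex (r = 0.928), Ywhah, a 14-3-3 protein (0.912), Cldn2, a tight junction protein (0.911), Lrpap1, a chaperone of lipoprotein receptors (0.907), and C1qc, a chain of complement C1q made by macrophages (0.901). They were picked as the highest of all named genes, so no p is given.

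Markers of cells that carry class II were examined beside the class II genes. All 8 measured macrophage and monocyte markers were higher in knockout on average, where 51% of all tested probes were. Their median log2 difference was 0.37, and 0 passed 5%. The median was 0.22 within array set 1, 0.57 within array set 2 and 0.27 without background correction. Within set 1 C1qa stood at -0.48 and Cd14 at -0.01. C1qb, another C1q chain, was detected on all 10 arrays and stood at 0.51 ± 0.15 (SE, limma adjusted p 0.263). Fcgr3, an Fc receptor, stood at 0.61 ± 0.16 (SE, limma adjusted p 0.239), but it was detected on 1 WT and 5 knockout arrays, so it passed the detection filter through knockout and was near background in WT. Their summed linear level was 1937 to 3323 in WT and 2655 to 4019 in knockout, and Adgre1 and Itgam, defining macrophage markers, were not measured. All 8 correlated positively with Cd74 after centring, with a median r of 0.608, where 6070 of all 12039 probes did, with a median of 0.00. This was not particular to macrophage markers, as all 4 measured T cell markers did too, with a median r of 0.456. The B cell marker Cd79b had 0.446. Of the dendritic cell markers 2 of 4 were positive (median 0.004), of the plasma cell markers 1 of 3 (-0.035) and of the epithelial markers 4 of 7 (0.058). C1qc had r = 0.901 (n = 10, exact permutation p = 0.00359, adjusted 0.118 over 33 markers) with rho = 0.915 (exact permutation p = 0.00475), 0.934 within array set 2 and 0.733 without the 2 farthest samples. C1qb had r = 0.836 (n = 10, exact permutation p = 0.00752, adjusted 0.124) with rho = 0.867 (exact permutation p = 0.00451), 0.909 within array set 2 and 0.728 without the 2 farthest samples. The median r of the same 8 markers was 0.595 with H2-Aa, 0.326 with H2-Ab1, 0.297 with H2-Eb1, 0.244 with Ciita, 0.186 with H2-DMb1 and 0.018 with H2-DMa. These values keep the genotype difference, since levels were centred on array set only. With levels centred on genotype too, an alternative chosen after seeing the data, the medians were 0.597 with H2-Aa, 0.588 with H2-DMa, 0.466 with H2-Eb1, 0.456 with Cd74, 0.454 with H2-DMb1, 0.399 with H2-Ab1 and 0.341 with Ciita. The part of macrophage content in the class II levels was not tested.

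Other class II carrying cells were thinly represented. Of 10 B cell markers with a probe, 1 was measured, Cd79b of the B cell receptor, at 0.49 ± 0.20 (SE, limma adjusted p 0.373), or 0.26 without background correction, and Ms4a1, Cd79a and Pax5 were not measured. Of 10 dendritic cell markers 4 were measured, with a median difference of 0.02 and 0 past 5%, among them the transcription factor Batf3 at -0.39 ± 0.22 (SE, limma adjusted p 0.5) and the lectin Siglech at 0.28 ± 0.21 (SE, limma adjusted p 0.612), and Itgax, Flt3 and Zbtb46 were not measured. Of the 3 measured plasma cell markers, 1 was higher and 2 were lower, with Mzb1, an ER cochaperone of plasma cells, at 0.44 ± 0.30 and Sdc1 at -0.09 ± 0.17 (SE, limma adjusted p 0.569 and 0.862). Both measured markers of group 3 innate lymphoid cells were lower on average and did not pass, Il7r at -0.29 ± 0.14 and Il1r1 at -0.15 ± 0.23 (SE, limma adjusted p 0.431 and 0.817). The 4 measured T cell markers, from cells that as a rule do not carry class II in mice, had a median difference of 0.53 with 0 past 5% and a summed linear level of 281 to 338 in WT and 310 to 598 in knockout. The median was 0.34 without background correction. Those with the lowest p were Cd8b1 at 1.14 ± 0.24 (SE, limma adjusted p 0.189), which was detected on 1 WT and 4 knockout arrays and so was near background in WT, and Cd3d at 0.47 ± 0.14 (SE, limma adjusted p 0.268). Of the epithelial markers 4 of 7 were higher, with a median of 0.08 and 0 past 5%, Cdx2 standing at -0.41 ± 0.14 (SE, limma adjusted p 0.316) and Sis at 0.24 ± 0.15 (SE, limma adjusted p 0.537). The ileal genes Fabp6, Slc51a, Slc51b and Fgf15 were detected on all 10 arrays, while Slc10a2 was not measured, and Fgf15 was at 0.50 ± 0.41 and Fabp6 at -0.14 ± 0.13 (SE, limma adjusted p 0.643 and 0.661).

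The regulators upstream of the class II genes gave no call either. The 2 probes of Ifng itself were detected on 0 arrays in both genotypes, with a lowest detection p of 0.0977, so the arrays do not check the genotype. Of 6 measured genes on the route from the IFNg receptor to Ciita, 4 were higher and 2 lower, with a median of 0.07 and 0 past 5%. Ifngr2, the signalling chain of the receptor, was at -0.38 ± 0.15 (SE, limma adjusted p 0.349) and Irf2, a factor that binds the Ciita promoter, at 0.36 ± 0.19 (SE, limma adjusted p 0.454). Of the 7 measured genes of the promoter complex and its coactivators, 2 were higher and 5 lower, with a median of -0.10 and 0 past 5%, among them the acetyltransferase Ep300 at -0.14 ± 0.14 and the RFX subunit Rfxap at -0.14 ± 0.14 (SE, limma adjusted p 0.706 and 0.722).

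Genes that act after class II synthesis were likewise mixed. Of 8 measured genes of endosomal processing, 6 were higher and 2 lower, with a median of 0.04 and 0 past 5%, and the proteases Ctsh and Ctsz stood at 0.30 ± 0.18 and -0.36 ± 0.22 (SE, limma adjusted p 0.521 and 0.531). Of 5 measured genes of surface turnover and costimulation, 2 were higher and 3 lower, with a median of -0.05 and 0 past 5%, and the costimulator Cd80 was at -0.21 ± 0.16 and the maturation marker Cd83 at 0.14 ± 0.15 (SE, limma adjusted p 0.62 and 0.731). The Cd74 ligand Mif and its coreceptor Cd44 were at 0.19 ± 0.21 and 0.12 ± 0.16 (SE, limma adjusted p 0.74 and 0.801), and neither passed.

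The class II genes lie on mouse chromosome 17, Cd74 on 18 and Ciita on 16. Genes between H2-K1 and Notch4 surround the class II genes on chromosome 17 and were mostly lower in knockout, without passing. Of 14 measured neighbours 12 were lower in knockout, where 5903 of all 12039 probes were, with a median of -0.23, and 0 passed 5%. The median of the neighbours was -0.38 within array set 1 and -0.16 within array set 2. H2-Eb2, a class II beta gene next to H2-Eb1, stood at -0.58 ± 0.20 (SE, limma adjusted p 0.305). It was detected on 4 WT arrays and 1 knockout array, so it passed the detection filter mainly through WT and was near background in knockout. Tap2 and Tap1, the subunits of the peptide transporter of class I, stood at -0.45 ± 0.17 (SE, limma adjusted p 0.343) and -0.31 ± 0.16 (SE, limma adjusted p 0.455). Without Ileum_WT_641 the median was -0.13 and 10 of 14 were lower, and under median scaling it was -0.03 with 8 of 14 lower, where the median of all probes shifts to 0.19.

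**Figure D4:**
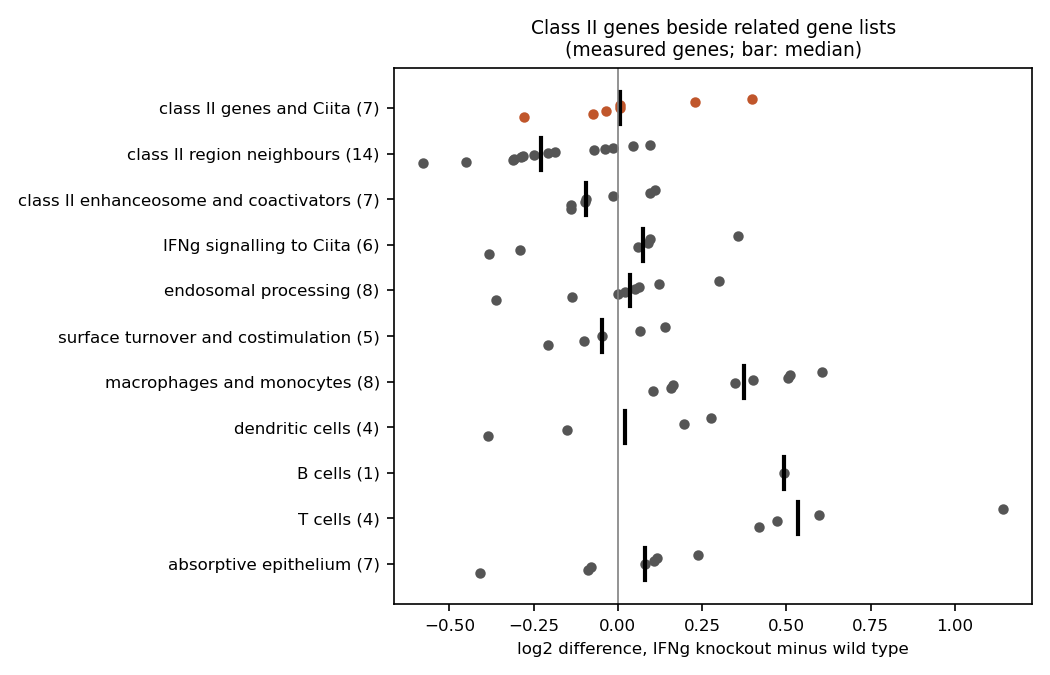
Log2 difference, knockout minus WT (horizontal axis), of each measured gene (1 point per gene, brightest probe) in the class II genes and in 10 related lists, with the number of measured genes in brackets and a bar at the median. The class II genes (orange) straddle 0 with a median of 0.01, the chromosome 17 neighbours sit mostly below 0, and the macrophage and T cell markers sit above it.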

How the data were processed

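Ileum RNA was measured on 10 arrays. Per the file headers, the authors' non-normalised table gives for each array a linear intensity and a detection p-value of every probe. A further deposited table gives the authors' intensities after quantile normalisation, as its values show, with no background taken off, and was an alternative. The tool lumi is named in the submitters' processing notes, with no version.

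From the intensities, neqc (limma 3.58.1, R 4.3.3) removed background by normexp, using control parameters implied by detection p, with offset 16, followed by quantile normalisation and log2. Gene symbols came from the platform annotation, matched through Entrez identifiers to a RefSeq table of GRCm38.p6 for 23962 probes. On the array 23978 probes have 1 symbol, 0 several and 1719 none. Genotypes were compared in limma (lmFit, eBayes) with array set as a term, after checks on simulated data. Correlations used set-centred levels and exact permutation within array sets. Named genes were all probes of the 10 genes, the 2 of each list with the lowest p, the 5 most like Cd74 and the 3 neighbours with the lowest p, a gene with several probes being represented by the one with the highest mean. The genes, lists and tests were chosen with earlier results of these data known. Depth does not apply to arrays, whose number limits the precision.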

Additional observations from a re-analysis of the deposited data

Results flagged for a closer look

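In Ileum_IFNgKO_646 the H2-Ab1 probe ILMN_2607675 had a level of 11.7 (log2), well apart from the other 4 knockout samples, the nearest of which was at 11.16. The gap was 0.869 of the group's whole range, above Dixon's 95% critical value of 0.71 for 5 samples. The levels were not centred on array set, and the critical value does not allow for a group that mixes both sets. Ileum_IFNgKO_646 belongs to set 1, and on this probe set 2 minus set 1 was -0.38 ± 0.15 (SE, limma adjusted p 0.0981). This was the 1 flag among 22 groups examined (11 probes in 2 genotypes), and chance flags about 1 in 20. On the other H2-Ab1 probes Ileum_IFNgKO_646 was the highest knockout sample too, at 11.88, 10.88 and 10.82.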

How the results depend on the processing

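The count of 0 class II probes past 5% for genotype held under all 23 alternatives, as did the 0 for the interaction where it was computed, and the lowest adjusted p of a class II probe was 0.214 (H2-Aa, median scaling). The median class II difference ran from -0.10 to 0.08 with 1 sample left out and was 0.18 under median scaling, where all probes shift to 0.19. Under median scaling 3 of the 11 had an unadjusted limma p under 0.05, H2-Aa at 0.54 and both Cd74 probes at 0.42. Of all 12039 probes 2039 did. Without Ileum_IFNgKO_645 both Cd74 probes did, at 0.31 and 0.34, beside 1153 of all probes. Under each other alternative 0 to 2 class II probes did. Over the 23 alternatives (22 for H2-Aa) the sign of the difference never changed for H2-Aa, H2-DMa, both Cd74 probes and the H2-Ab1 probe ILMN_2631423, and it changed under 7 for Ciita and under 6 for H2-Eb1. The number of probes past 5% for genotype on the whole array, 2, became 5 with an offset of 50, 5 with the authors' table, 10 with median scaling, 4 with trend and robust eBayes, 1 when detection was required on all 10 arrays, 1 with no array set term, 0 within set 1 and 0 within set 2 (530 and 888 at an unadjusted p under 0.05), and 1 to 4 with 1 sample left out. It was 1 without Ileum_WT_641 and Ileum_WT_644 and without Ileum_IFNgKO_645, Ileum_IFNgKO_646, Ileum_IFNgKO_648 and Ileum_IFNgKO_649, and 4 without Ileum_IFNgKO_647. The class II probes past 5% for array set, 1, became 2 without background correction, 2 with an offset of 50 and 2 with the authors' table, adding a Cd74 probe each time, 3 with trend and robust eBayes, and 0 when detection was required on all 10 arrays, where H2-Aa is not tested. With 1 sample left out it was 1 to 3, with 2 without Ileum_WT_640, Ileum_WT_644 or Ileum_IFNgKO_649 and 3 without Ileum_IFNgKO_645. Pairs of class II genes past 5%, 0, became 2 without Ileum_WT_640 and were 0 to 2 over the samples left out. List medians without Ileum_WT_641 were added after seeing the data. That of the Cd74 partners moved from 0.15 to 0.33. The median turned sign for the epithelial markers (from 0.08 to -0.001). It also turned sign for IFNg signalling (to -0.05), surface turnover (to 0.09) and endosomal processing (to -0.01). The causes of these changes were not tested. H2-Aa and Ciita are the dim probes here, and under median scaling or without background correction H2-Aa stands at 0.54 or 0.21. No paired analysis was possible because each sample has a number of its own.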
